A study of Homo sapiens with 4 samples.

Results

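The genes described here are 10 enzymes that modify or crosslink collagen. They are the alpha subunits of prolyl 4-hydroxylase (P4HA1, P4HA2 and P4HA3), the lysyl hydroxylases (PLOD1, PLOD2 and PLOD3) and 4 lysyl oxidases (LOX, LOXL1, LOXL2 and LOXL4), and each was found by its symbol among the 56304 genes of the count table. RNA came from MV3, an established human melanoma line of high metastatic capacity that stably expresses H2B-GFP, a histone fused to a fluorescent protein. Spheroids of 50000 cells were grown without treatment in rat tail collagen I for 2 days, the core was removed with a punch of 1 mm, and the surrounding invasion zone with a punch of 3 mm. Each zone had 2 libraries, numbered replicate 1 and replicate 2, and whether a library came from 1 spheroid or from several is not given in the sources used here. Because the punch cuts vertically, cells that invaded above or below the spheroid can remain in the core sample. The comparison asks which expression programs differ between cells that stayed in the core and cells that entered the collagen.

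Sequencing depth ranged from 11789243 to 37591782 counts per library, with both replicate 2 libraries below both replicate 1 libraries, and nothing in the labels says that the replicates were separate cultures, so the p-values measure only the spread between these libraries. Of 10 melanocyte markers, SOX10 and TYR had 0 counts in every library, MITF had 30 to 82 and MCAM 373 to 1076. Of 6 markers of dedifferentiated melanoma, NGFR had 0 to 2 counts. The others were compared in CPM (the standard depth-scaled count, here with TMM-corrected library sizes). AXL (633 and 629 in the core against 1224 and 1121) and EGFR (135 and 192 against 195 and 208) were higher in both invasion zone libraries. WNT5A and TNC were lower in both, and SOX9 overlapped between the zones. Of the fibroblast markers, DCN and LUM had 0 counts in every library. The 8 fibroblast markers summed to 125 and 82.8 CPM for core libraries and to 49.7 and 23.5 CPM for invasion zone libraries, most of it PDGFRA. The endothelial marker KDR and the leukocyte markers CD3E and MS4A1 also had 0 counts in every library. However, the endothelial marker PECAM1 (18.1 and 7.43 against 5.23 and 0.926 CPM) and the leukocyte marker CD14 (1.37 and 1.06 against 0.294 and 0.337 CPM) were lower in the invasion zone, as were PDGFRA and most of the collagen enzymes, with adjusted p = 0.000461 and 0.0147 in edgeR with the replicate as a block and 0.208 and 0.142 without it. Of 5 epithelial markers, EPCAM had 0 to 2 counts. KRT18 overlapped between the zones (131 and 158 against 134 and 118 CPM), and KRT8 was lower in the invasion zone (13.9 and 15.1 against 9.21 and 7.83 CPM). The part of these markers in the results was not tested.

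Collagen chains are hydroxylated in the endoplasmic reticulum before they fold into a triple helix. Prolyl 4-hydroxylase is a tetramer of alpha subunits with the beta subunit P4HB, and its product, hydroxyproline, keeps the helix stable at body temperature. Lysyl hydroxylases modify lysines that later carry sugars or form crosslinks, and PLOD2 is the member that acts on the telopeptides at the chain ends. Both enzyme families need oxygen, iron, ascorbate and 2-oxoglutarate. After secretion, the copper-dependent lysyl oxidases convert lysines of collagen and elastin to reactive aldehydes, from which covalent crosslinks form. Several of these genes, among them P4HA1, P4HA2, PLOD1, PLOD2, LOX and LOXL2, are known targets of the hypoxia-inducible factors (HIF), transcription factors that bind DNA at elements with the core letters ACGTG or GCGTG.

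The promoter window of P4HA1 is shown as that of a gene called lower with the replicate block (adjusted p under 0.05 and at least 2-fold) that holds ACGTG. PLOD2 is shown as 1 gene that was not called there, the first with a window in the order of the enzymes. All 3 genes shown, with LOX, had lower levels in the invasion zone and hold ACGTG, so these windows give no comparison with an unchanged gene. Windows run from 250 bases before to 50 bases after the transcription start (RefSeq, GRCh38.p14, each written 5′ to 3′ on the minus strand, the strand of the gene), and capitals mark ACGTG or its reverse complement CACGT. The LOX window is the most upstream of the gene's 3 windows, and LOX was added to this selection after its values were seen.
P4HA1, chr10:73096817-73097116: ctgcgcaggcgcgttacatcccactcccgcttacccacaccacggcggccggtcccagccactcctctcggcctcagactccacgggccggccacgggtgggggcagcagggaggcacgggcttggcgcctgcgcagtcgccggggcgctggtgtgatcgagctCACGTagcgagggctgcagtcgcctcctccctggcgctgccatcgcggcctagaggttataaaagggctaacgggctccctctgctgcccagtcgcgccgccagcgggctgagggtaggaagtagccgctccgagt
PLOD2, chr3:146161135-146161434: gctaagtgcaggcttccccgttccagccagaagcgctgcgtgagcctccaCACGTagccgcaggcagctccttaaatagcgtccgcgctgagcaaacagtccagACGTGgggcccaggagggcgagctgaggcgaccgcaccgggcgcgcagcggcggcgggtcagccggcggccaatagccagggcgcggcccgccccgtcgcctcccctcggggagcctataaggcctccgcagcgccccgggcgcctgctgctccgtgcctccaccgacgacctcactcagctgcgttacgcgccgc
LOX, chr5:122078210-122078509: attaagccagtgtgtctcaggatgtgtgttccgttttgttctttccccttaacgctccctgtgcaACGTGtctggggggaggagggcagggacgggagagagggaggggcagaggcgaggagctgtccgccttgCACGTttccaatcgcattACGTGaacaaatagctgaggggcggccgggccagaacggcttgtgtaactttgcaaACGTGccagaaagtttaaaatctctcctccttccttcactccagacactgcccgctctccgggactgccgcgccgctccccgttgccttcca
The P4HA1 window holds 1 match, the PLOD2 window 2 and this LOX window 4, counted on both strands. Of the 8 genes with a window, 3 hold ACGTG in at least 1 window, against 24.9% of all 27305 genes, and 5 of their 10 windows hold it, 3 of these from LOX, against 21.4% of all 35116 windows. The LOX windows not shown overlap each other and hold the same match, so that match is counted in both. The other 5 genes (P4HA2, PLOD1, PLOD3, LOXL1 and LOXL4) do not hold it. The letters GCGTG, also searched on both strands, are in windows of 3 genes (PLOD1, PLOD2 and LOX), against 40.6% of all genes. The letters CACGTG, where they occur, hold ACGTG on both strands. A match is a description of these letters and not evidence of binding.

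Most of these enzymes had lower levels in the invasion zone. P4HA1, PLOD1 and P4HA2 were 3.62-fold, 3.03-fold and 2.78-fold higher in the core, PLOD2 was 1.99-fold higher, and LOX and LOXL2 were 1.53-fold and 1.51-fold higher. PLOD3 and LOXL1 had ratios near 1 (0.960 and 1.14), LOXL4 was expressed at a low level, and P4HA3 was at the detection limit. The comparison was made by edgeR's quasi-likelihood test over 15529 genes, among them 9 of the 10 enzymes. A gene counted as called at a Benjamini-Hochberg adjusted p under 0.05 together with at least a 2-fold change. Without a term for the replicate, 0 of the 9 genes were called, as were 0 of all genes (0% in each direction), and the adjusted p of the 9 ran from 0.128 to 0.827. The value 0.128 is the smallest adjusted p of any gene in that fit, and many genes share it through the adjustment. At an unadjusted p under 0.05 and 2-fold, P4HA1, P4HA2 and PLOD1 were lower, against 5.85% of all genes, and none of the 9 was higher, against 2.92%. DESeq2, also without a replicate term, called P4HA1, P4HA2 and PLOD1 lower at an adjusted p under 0.05 and 2-fold, against 3.44% of all genes, and none of the 9 higher, against 2.27%. With the replicate number as a block DESeq2 called the same 3 genes, against 4.83% of all genes lower and 2.76% higher. With that block in edgeR, P4HA1, P4HA2, PLOD1 and LOXL4 were called lower, against 7.06% of all genes, and 0 were called higher, against 3.41%. Without a fold minimum, the blocked fit held 7 of the 9 as lower (those 4 with PLOD2, LOX and LOXL2), against 19.4% of all genes, and 0 as higher, also against 19.4%. In bulk RNA, fewer cells that express a gene and less of its RNA per cell cannot be told apart.

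**Figure D1:**
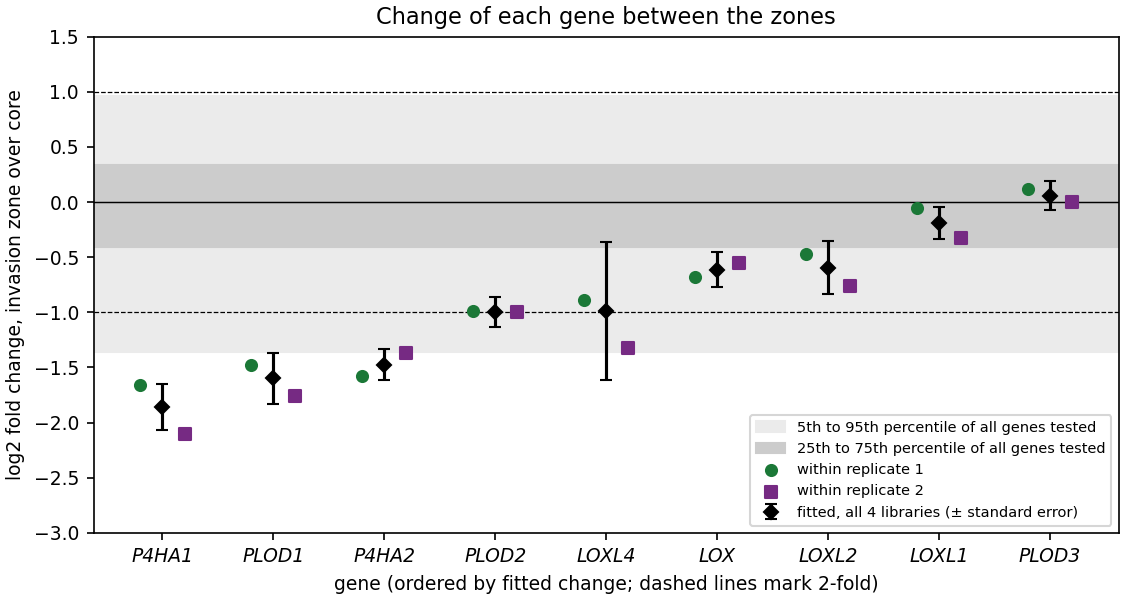
Log2 ratio of invasion zone to core for the 9 tested genes. Diamonds with bars are the edgeR fit over 4 libraries with its standard error, circles and squares are the difference within replicate 1 and within replicate 2, grey bands give the spread of all 15529 genes, and dashed lines mark 2-fold. P4HA1, PLOD1 and P4HA2 (-1.86, -1.60 and -1.47) lie under the 5th percentile of all genes (-1.36), and PLOD3 (0.06) lies near 0.

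P4HA1 encodes the main catalytic alpha subunit of prolyl 4-hydroxylase (ENSG00000122884, GRCh38 chromosome 10, 73007217 to 73096974). It had 255 and 241 CPM in core replicates 1 and 2 and 80.6 and 56.2 CPM in invasion zone replicates 1 and 2. Both invasion zone libraries lay far below both core libraries, and the core-to-invasion ratio of counts over library totals, before TMM scaling, was 3.13 within replicate 1 (exact 95% interval 3.00 to 3.26) and 4.29 within replicate 2 (3.95 to 4.66), where these and later intervals cover counting error only. The log2 fold change was -1.86 (standard error 0.21), with adjusted p = 0.128 without and 3.67e-05 with the replicate block in edgeR, and 2.52e-11 in DESeq2. Only 2.27% of the genes tested had a lower log2 fold change.

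P4HA2, the second alpha subunit (ENSG00000072682, chromosome 5, 132190147 to 132295315), had 204 and 198 CPM in the core against 68.3 and 76.3 CPM in the invasion zone. Replicates of a zone were close to each other, at 201 ± 4.12 CPM (SD, n = 2) and 72.3 ± 5.67 CPM. The log2 fold change was -1.47 (standard error 0.14), with adjusted p = 0.128 without and 3.67e-05 with the block in edgeR. P4HA3, the third alpha subunit (ENSG00000149380, chromosome 11, 74235801 to 74311640), had 0 and 2 counts in the core and 2 and 0 counts in the invasion zone. All 4 values are under the limit of 3 counts that a count of 0 allows, which is 0.0798 to 0.254 CPM depending on the library, so P4HA3 was not tested and no ratio is given. Within a library, the ratio of P4HA1 to P4HA2 counts was 1.25 and 1.22 in the core against 1.18 and 0.736 in the invasion zone, which is 1.06-fold lower within replicate 1 and 1.66-fold lower within replicate 2.

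**Figure D2:**
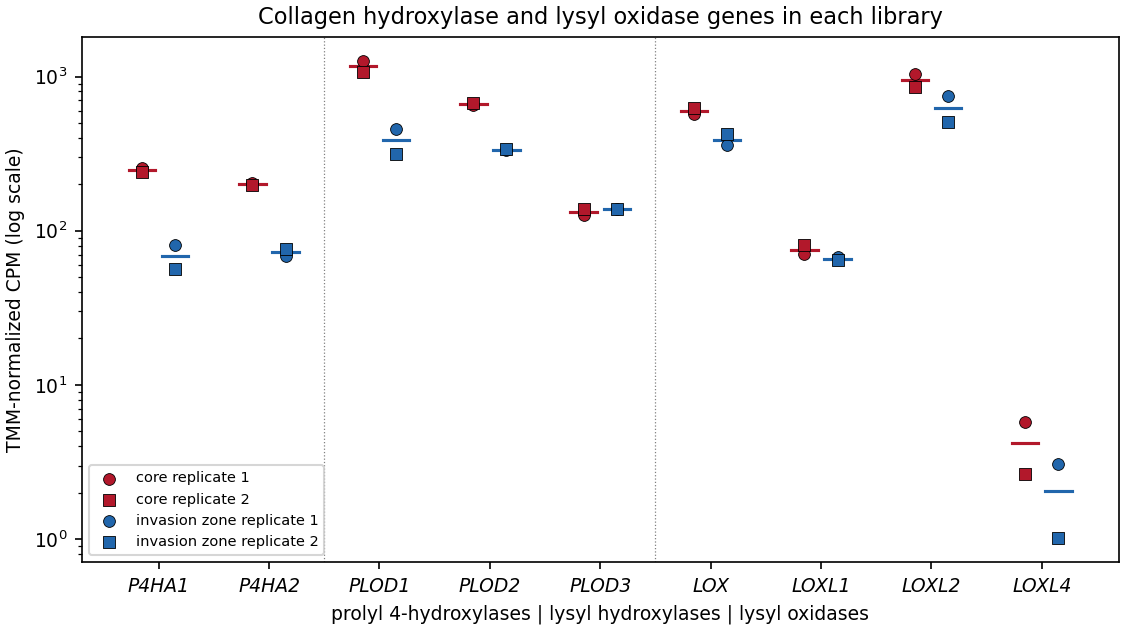
TMM-normalized CPM on a log scale for the 9 tested genes, in core (red) and invasion zone (blue) libraries, with circles for replicate 1, squares for replicate 2 and short lines for the zone means. For P4HA1, P4HA2, PLOD1, PLOD2, LOX, LOXL1 and LOXL2 both blue points lie under both red points, and for PLOD3 and LOXL4 they overlap.

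PLOD1 (ENSG00000083444, chromosome 1, 11934205 to 11975538), a lysyl hydroxylase of the helical part of collagen, had the highest length-scaled level of the 10 genes in the core. It had 1267 and 1067 CPM in the core against 455 and 315 CPM in the invasion zone, without overlap of the zones. The log2 fold change was -1.60 (standard error 0.23), with adjusted p = 0.128 without and 3.25e-05 with the block in edgeR and 6.06e-08 in DESeq2. After a correction for GC content and transcript length it was -1.36 without the block, at adjusted p = 0.105, and -1.37 with it, at 5.99e-11. PLOD2, the telopeptide lysyl hydroxylase (ENSG00000152952, chromosome 3, 146035139 to 146163725), had 658 and 678 CPM in the core against 331 and 339 CPM in the invasion zone. Among the 9 genes its difference varied least between the replicates, at CPM ratios of core to invasion zone of 1.987 and 1.9996 within replicates 1 and 2. Its fitted log2 fold change was -0.995 (standard error 0.14), with adjusted p = 0.128 without and 5.90e-05 with the block in edgeR. With the block PLOD2 was not called because its change falls just short of the 2-fold minimum. PLOD3, which hydroxylates lysines and also transfers sugars to them (ENSG00000106397, chromosome 7, 101205977 to 101218420), had 127 and 138 CPM in the core against 138 and 139 CPM in the invasion zone. Its log2 fold change was 0.06 (standard error 0.13, adjusted p = 0.827 without the block). After the same correction for GC content and transcript length it was 0.36, with adjusted p = 0.213 without and 0.00530 with the block.

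LOX, the founding lysyl oxidase (ENSG00000113083, chromosome 5, 122063195 to 122078413), had 571 and 621 CPM in the core against 357 and 423 CPM in the invasion zone. The zones did not overlap, and the log2 fold change was -0.61 (standard error 0.16), with adjusted p = 0.135 without and 0.000335 with the block in edgeR and 0.0320 in DESeq2. LOXL2, a lysyl oxidase that acts on collagen IV (ENSG00000134013, chromosome 8, 23296897 to 23425328), had 1040.0 and 855 CPM in the core against 750.0 and 506 CPM in the invasion zone. Its log2 fold change was -0.59 (standard error 0.24), with adjusted p = 0.207 without and 0.000719 with the block in edgeR and 0.110 in DESeq2. The change moved between -0.91 without invasion zone replicate 1 and -0.34 without invasion zone replicate 2. After the correction for GC content and length it was -0.37, with adjusted p = 0.306 without the block, and -0.38 with it, at 0.00181. LOXL1, known for elastin crosslinking (ENSG00000129038, chromosome 15, 73925989 to 73952137), had 70.2 and 80.3 CPM in the core against 67.7 and 64.1 CPM in the invasion zone. The invasion zone libraries were the lower ones, but by little, with a log2 fold change of -0.19 (standard error 0.15, adjusted p = 0.465 without and 0.184 with the block), and its sign turned under the correction for GC content and length (0.21 without and 0.22 with the block). LOXL4 (ENSG00000138131, chromosome 10, 98247690 to 98268194) had 5.76 and 2.65 CPM in the core against 3.07 and 1.01 CPM in the invasion zone, from 206, 40, 115 and 12 counts. The zones overlapped, since core replicate 2 was lower than invasion zone replicate 1, although the core was the higher one within each replicate, at ratios of counts over library totals of 1.85 (exact 95% interval 1.47 to 2.35) and 2.62 (1.35 to 5.49). Its log2 fold change was -0.99 (standard error 0.63), with adjusted p = 0.385 without the block, 0.0210 with the block in edgeR and 0.114 with the block in DESeq2, and it ranged from -2.08 without invasion zone replicate 1 to -0.31 without core replicate 1.

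In all, both invasion zone values were under both core values for 7 of the 9 tested genes, against 30.3% of all genes tested, and above both for 0, against 28.1%. Over the 9 genes the log2 fold change had a median of -0.99, against -0.01 for all genes tested. By family, the median was -1.67 for the 2 tested prolyl 4-hydroxylase subunits, -0.995 for the 3 lysyl hydroxylases and -0.60 for the 4 lysyl oxidases, without a test between families, whose genes spread widely (from -1.60 to 0.06 among the lysyl hydroxylases). Calls at an adjusted p under 0.05 and 2-fold appeared in edgeR without the block once any library was left out. The genes were filtered anew for each of these fits, which tested from 14910 to 17486 genes, and the percentages given for them are of those genes. P4HA1, P4HA2 and PLOD1 were then called lower in each case, against 0.838% of all genes without core replicate 1, 3.82% without core replicate 2, 7.6% without invasion zone replicate 1 and 1.98% without invasion zone replicate 2. They were joined by LOXL4 without invasion zone replicate 1 and by PLOD2 without invasion zone replicate 2, and here the single library left in 1 zone took its spread from the other zone. With 2 libraries per zone, an exact permutation test on a single gene cannot give a p under 0.333.

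Scaled to gene length, as CPM per kilobase of exon, the order in the core was PLOD1 (218), LOXL2 (157), LOX (106), P4HA1 (79.9), PLOD2 (45.8), PLOD3 (23.3), LOXL1 (20.6), P4HA2 (19.7) and LOXL4 (1.16), as means of 2 libraries. PLOD3, LOXL1 and P4HA2 were neighbours whose libraries overlapped in the core, and the other neighbours did not overlap. In the invasion zone LOXL2 (105) came first, and its libraries overlapped those of PLOD1 (72.4), which in turn overlapped those of LOX (69.9). PLOD3 (24.4), PLOD2 (23.1) and P4HA1 (22.1) followed. The libraries of P4HA1 (26.0 and 18.3) overlapped those of PLOD3, PLOD2 and LOXL1 there, so its place among them is not resolved. The order also depends on the length used, since per kilobase of the longest transcript PLOD2 (110 and 116) lay above P4HA1 (88.4 and 85.4) in the core.

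Among the lysyl hydroxylases, the share of PLOD1 was smaller and that of PLOD3 larger in the invasion zone. PLOD1 made up 77.9% and 73.8% of the length-scaled PLOD counts in the core and 64.5% and 55.3% in the invasion zone. PLOD3 made up 7.32% and 8.98% in the core and 18.3% and 22.9% in the invasion zone. The shares of both genes did not overlap between the zones, and the shift in PLOD1 was -15.9 percentage points, or -16.3 when the longest transcript was used for the length. PLOD2 made up 14.8% and 17.18% in the core and 17.21% and 21.8% in the invasion zone, but its shares overlapped per longest transcript. In CPM, PLOD3 itself was nearly equal in the zones (127 and 138 against 138 and 139), while PLOD1 and PLOD2 were lower in the invasion zone. The ratio of PLOD1 to PLOD3 counts, which needs no scaling between libraries, was 9.98 and 7.71 in the core and 3.31 and 2.27 in the invasion zone. The share of P4HA1 among the prolyl 4-hydroxylase alpha subunits was 80.4% and 79.96% in the core and 79.4% and 70.7% in the invasion zone, a shift carried by invasion zone replicate 2. Among the lysyl oxidases, LOX made up 34.4% and 40.1% in the core and 30.6% and 42.4% in the invasion zone, which overlapped, and LOXL2 made up 58.6% and 51.6% in the core and 60.1% and 47.5% in the invasion zone. LOXL1, at 6.51% and 7.97% in the core against 8.92% and 9.91%, did not overlap between the zones. No test was run on the shares.

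**Figure D3:**
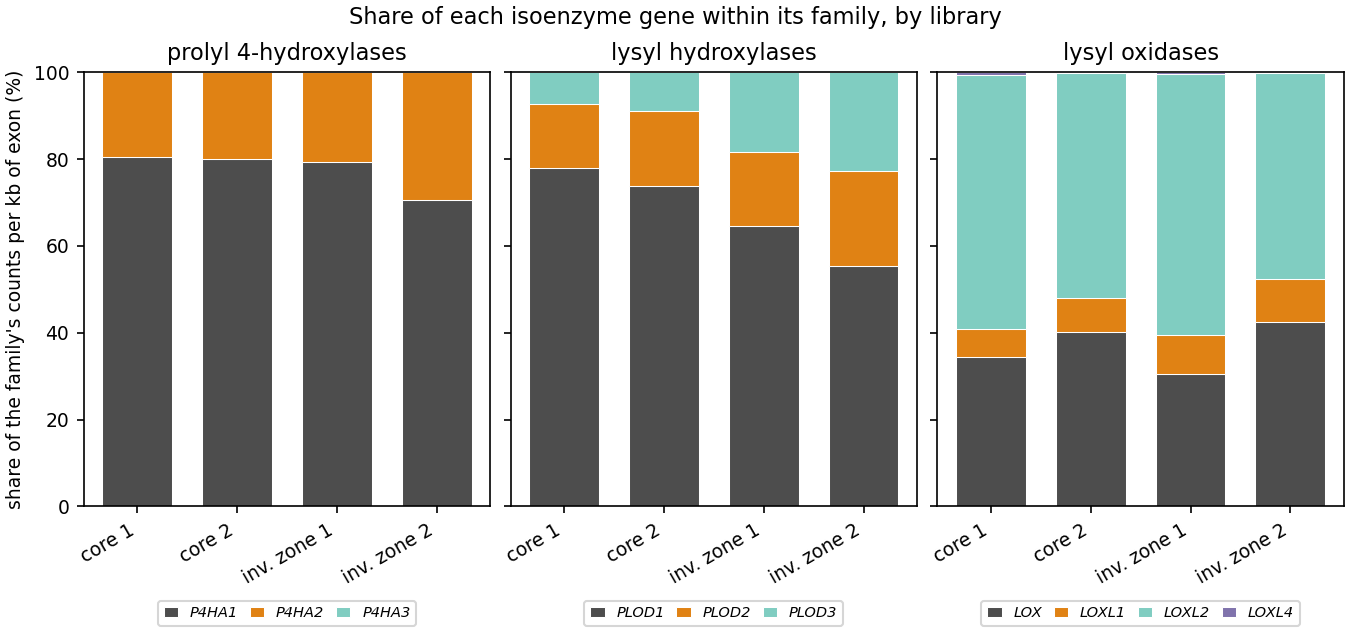
Share of each gene in the length-scaled counts of its family, in percent, for each of the 4 libraries. The part of PLOD3 was 7.32% and 8.98% in the core libraries against 18.3% and 22.9% in the invasion zone libraries, whereas the lysyl oxidase shares of the zones overlapped for LOX and LOXL2.

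The partners of these enzymes were also compared. Of 23 other enzymes, subunits and chaperones of collagen maturation, all were tested, and their median log2 fold change was -0.19. At an adjusted p under 0.05 and 2-fold, edgeR with the block called 0 of them, against 7.06% of all genes lower and 3.41% higher. DESeq2 without the block also called 0, against 3.44% lower and 2.27% higher. In edgeR without the block 0 were called, as were 0 of all genes. At an adjusted p under 0.05 of any fold in the blocked fit, 10 were lower and 2 were higher (19.4% of all genes in each direction). P4HB, the beta subunit of prolyl 4-hydroxylase, was named after its values were seen and had 1557 and 1557 CPM in the core against 1060 and 1077 CPM in the invasion zone (log2 fold change -0.54, standard error 0.14, adjusted p = 0.135 without and 0.000489 with the block). The ratio of P4HA1 to P4HB counts was 0.164 and 0.155 in the core and 0.0760 and 0.0522 in the invasion zone, lower within replicates 1 and 2 by 2.16-fold and 2.97-fold. The partners with the largest differences were LOXL3, the remaining lysyl oxidase (1.48 and 2.39 against 3.02 and 3.37 CPM), and FKBP10, a collagen chaperone that assists telopeptide hydroxylation (226 and 239 against 138 and 142 CPM). They were followed by MIA3, a cargo receptor for procollagen export (138 and 92.9 against 85.6 and 58.7 CPM), and FKBP7 (28.7 and 21.4 against 20.2 and 12.2 CPM). LOXL3 had the opposite sign to LOX, with a log2 fold change of 0.74 (standard error 0.39), and passed neither fit (adjusted p = 0.307 without and 0.0775 with the block).

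Of 14 genes for procollagen processing and for the activation of lysyl oxidases, 9 were tested, with a median log2 fold change of -0.83. In edgeR with the block 4 were called lower, against 7.06% of all genes, and 0 higher, against 3.41%. Without the block edgeR called 0 in either direction and DESeq2 called 2 lower, against 3.44% of all genes. BMP1, the protease that releases procollagen C-propeptides and activates the LOX precursor, had 88.5 and 68.6 CPM in the core against 34.4 and 23.5 CPM in the invasion zone. PCOLCE, which enhances that cleavage, had 397 and 344 CPM in the core against 179 and 106 CPM in the invasion zone. For both genes the zones did not overlap, and the log2 fold changes were -1.43 and -1.38. Their adjusted p in edgeR was 0.128 for each without the block, and 5.90e-05 and 9.73e-05 with it. ATP7A, the pump that loads copper into lysyl oxidases, had 53.7 and 41.8 against 30.1 and 17.6 CPM. MFAP4, an elastic fibre protein, was near the detection limit at 0.503 and 0.398 against 0.0801 and 0 CPM.

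The substrates had lower levels in the invasion zone too. Of 11 fibril-forming collagen chains and elastin, 8 were tested. Each had a negative log2 fold change, against 50.7% of all genes tested, with a median of -1.48. In edgeR with the block 5 were called lower, against 7.06% of all genes. Without the block edgeR called 0 and DESeq2 called 4 lower, against 3.44%. COL1A1, the major chain of collagen I, had 1081 and 774 CPM in the core against 435 and 217 CPM in the invasion zone (log2 fold change -1.51, standard error 0.37, adjusted p = 0.135 without and 6.52e-05 with the block). COL3A1, COL11A2 and COL5A3 were low, at no more than 12.4 CPM in any library. Per length, the summed lysyl oxidases stood at 1.75 and 2.32 times the summed fibril-forming chains in the core and at 2.99 and 5.10 times in the invasion zone, without overlap of the zones. The corresponding ratio for P4HA1 with P4HA2 was 0.605 and 0.820 in the core and 0.470 and 0.738 in the invasion zone, which overlapped.

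The hydroxylases belong to the iron- and 2-oxoglutarate-dependent dioxygenases, and 26 of 27 other genes of that class were tested. Their median log2 fold change was -0.34, and in edgeR with the block 4 were called lower, against 7.06% of all genes, and 0 higher, against 3.41%. Without the block edgeR called 0 in either direction and DESeq2 called 1 lower, against 3.44%. KDM3A, a histone demethylase, had 121 and 111 CPM in the core against 46.8 and 40.1 CPM in the invasion zone (log2 fold change -1.41, standard error 0.15). KDM4B, another demethylase, had 87.2 and 99.0 CPM in the core against 54.3 and 38.2 CPM. TET1 (8.52 and 8.03 against 4.43 and 0.926 CPM) and BBOX1 (1.76 and 0.796 against 0.107 and 0 CPM) were low.

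Of 26 HIF targets that are not collagen enzymes, 25 were tested. All 25 had a negative log2 fold change, against 50.7% of all genes tested, with a median of -1.25. In edgeR with the block 16 were called lower, against 7.06% of all genes, and 0 higher, against 3.41%. Without the block DESeq2 called 16 lower, against 3.44% of all genes, and edgeR called 0. KDM3A, EGLN1 and EGLN3 are also among the dioxygenases. CA9, a carbonic anhydrase, had 174 and 159 CPM in the core against 13.4 and 3.62 CPM in the invasion zone. NDRG1 had 186 and 120 against 27.8 and 11.5 CPM, PFKFB4, a regulator of glycolysis, had 58.9 and 74.8 against 13.4 and 11.9 CPM, and VEGFA had 895 and 708 against 268 and 130 CPM. The 20 S phase and mitosis genes went the other way, at a median of 1.23 on the log2 scale and a summed level of 1256 and 2210 CPM in the core against 3436 and 4169 CPM in the invasion zone. Of them 17 were called higher in edgeR with the block, against 3.41% of all genes, and 17 in DESeq2 without it, against 2.27%, whereas edgeR without the block called 0. Among them CDC45 had 8.36 and 17.4 against 35.1 and 46.1 CPM, GINS2 15.4 and 28.6 against 45.9 and 72.3 CPM, CDC6 24.9 and 40.8 against 74.6 and 98.3 CPM, and CDK1 92.6 and 187 against 316 and 414 CPM. The part of either group of genes in the levels of the collagen enzymes was not tested. No list was chosen independently of earlier results of these libraries.

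**Figure D4:**
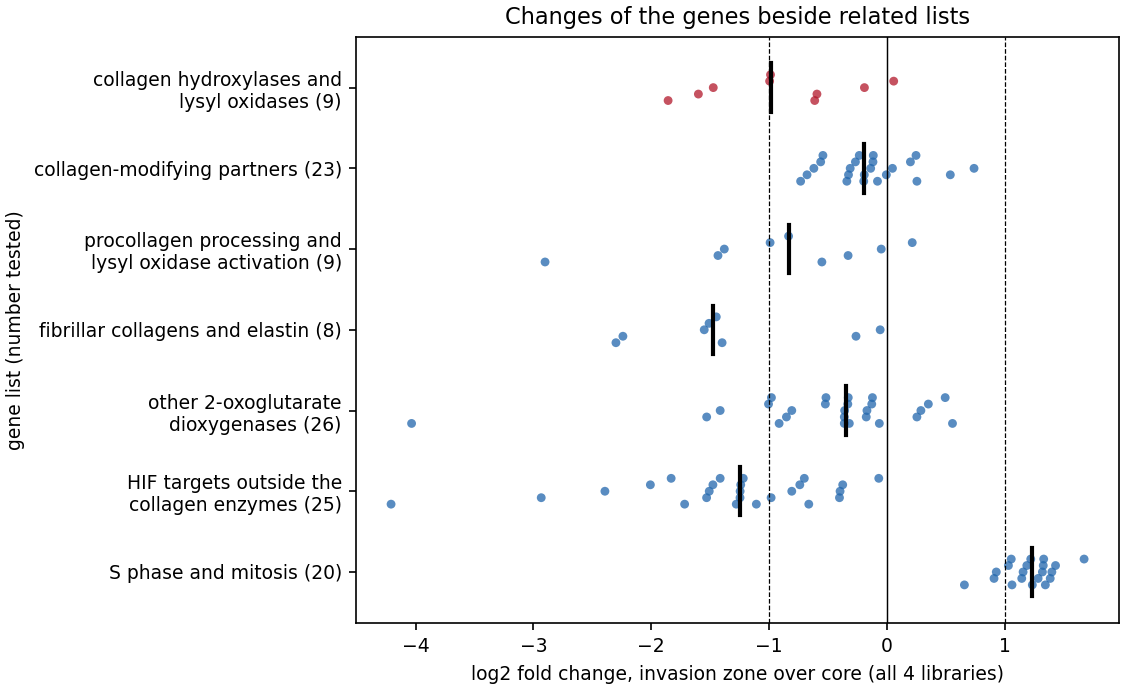
Log2 ratio of invasion zone to core for each tested gene of the collagen hydroxylases and lysyl oxidases (red) and of 6 related lists (blue), with black bars at the medians and dashed lines at 2-fold. The median was -0.99 for the enzymes, -0.19 for their partners, -1.48 for the fibrillar substrates and -1.25 for the HIF targets, and the S phase and mitosis genes lie on the other side of 0.

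Among 6540 genes with a mean log2 CPM of at least 5, the profiles closest to 1 gene of each family over the 4 libraries were found by the Euclidean distance of centred log2 CPM. For P4HA1 they were TMEM45A (0.157), ARRDC3 (0.215) and ICAM1 (0.262), and 2 genes lay within 0.25. For PLOD2 they were ARHGAP45 (0.121), PGK1 (0.142) and PLIN2 (0.143), with 18 genes within 0.25. For LOX they were FSTL3 (0.0337), UBTD2 (0.0543) and FTH1 (0.0721), with 84 genes within 0.25. With 4 libraries these distances are a description only.

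The counting could have mixed a small part of these reads with those of neighbours, since the cDNA kit (SMARTer Ultra Low Input) does not mark strand. Exons of PLOD1 and PLOD2 overlap no other annotated gene. Of the other genes, P4HA2 shares 548 of 10128 exonic bases with a gene on the opposite strand, LOXL1 335 of 3637, LOXL4 152 of 3597, LOX 138 of 5596, PLOD3 102 of 5671 and P4HA1 47 of 3093, and LOXL2 shares 178 of 5985 with the opposite and 120 with its own strand.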

How the data were processed

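The deposited values are raw counts per gene, which the authors obtained from reads freed of ribosomal RNA (Bowtie), aligned to hg38 (STAR) and counted where uniquely mapped (HTSeq). For tool versions, annotation release and strand setting, the entry is: not given in the sources used here. DESeq2 was the test of the authors. From the 56306 rows, 2 repeated rows with 0 counts were left out. In R 4.3.3, edgeR 4.0.16 scaled the libraries by TMM, filtered genes by expression (filterByExpr, 10 counts scaled to the median library in 2 or more libraries, 15 in total), and tested invasion zone against core by the quasi-likelihood test, with Benjamini-Hochberg adjustment over all 15529 genes and standard errors taken from the F statistic. DESeq2 1.42.0 and limma 3.58.1 were alternatives. Differences within a replicate used log2 CPM with a prior count of 2. The procedure was tested on simulated data.

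In the methods each core was punched first and its own surroundings afterwards, which was read as pairing libraries of 1 number, although no source states what the number marks. The deviations from the zone means correlated between such libraries at 0.58 across 15529 genes. With 2 libraries per zone, both pairs give this same value by construction. Both replicate 2 libraries also had fewer counts than both replicate 1 libraries, and what the correlation reflects was not tested. The unblocked fit is given first. The blocked fit is given for the calls of each list, for most of the enzymes and for some of the other named genes. A named gene without a blocked value can still have been called in that fit. The chi-square per degree of freedom between libraries of a zone was 33.8 and 31.9, so neither pair was 1 library sequenced again. This value cannot tell separate cultures from repeated preparations of 1 RNA. Positions and lengths came from GENCODE release 44 (GRCh38), which holds 98.1% of the identifiers.

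The enzymes, lists and tests were chosen with earlier results of these data known. The rule for named genes took all 10 enzymes, up to 4 tested genes of each list with the largest absolute change of 1 sign in both replicates, and the 3 closest profiles to P4HA1, PLOD2 and LOX. Promoters came from RefSeq for 8 of the 10 enzymes. Alternatives were other scalings, count filters, tests, the replicate block, unadjusted p, no fold minimum, leaving out each library, thinning to the smallest library and other gene lengths, with a GC and length correction added after the data were seen.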

Additional observations from a re-analysis of the deposited data

How the results depend on the processing

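The counts of calls depended on the test, the replicate term and the libraries, and the causes were not tested. The fit without a block called 0 genes higher and 0 lower, also with DESeq2 size factors or upper-quartile factors in edgeR, at least 10 counts in every library, limma voom, no fold minimum, thinning and the GC and length correction. Genes higher and lower numbered 427 and 846 without a count filter, 353 and 534 in DESeq2, 444 and 840 in DESeq2 at an unadjusted p, and 454 and 909 in edgeR at an unadjusted p. They numbered 13 to 632 and 125 to 1137 with each library left out. With the replicate block (pairing by number) they numbered 530 and 1097 in edgeR, 428 and 750 in DESeq2, 575 and 1088 in limma voom, 635 and 1248 at an unadjusted p, and 3010 and 3009 without a fold minimum. After the GC and length correction they numbered 735 and 974 with the replicate block (43.0% of calls higher, against 32.6% without the correction) and 617 and 755 at an unadjusted p (45.0% against 33.3%). The collagen enzymes called higher numbered 0 under every alternative run, and those called lower numbered 0 in the unblocked edgeR fit with all libraries and in the alternatives named above that called 0 genes. They numbered 4 with the replicate block in edgeR, also there at an unadjusted p, 7 with the block and no fold minimum, 3 to 4 with each library left out, and 3 in the other fits that called genes (DESeq2, no count filter, edgeR at an unadjusted p, blocked DESeq2 and limma voom, and the corrected fits with the block or at an unadjusted p). Of 144 member values under alternatives, 109 kept their direction and their side of the threshold, 33 passed it, and 2 reversed. Both reversals were LOXL1 after the GC and length correction, at 0.21 without and 0.22 with the block. Shares within a family moved with the length used, P4HA1 in the core from 80.2% per exon union to 66.4% per longest transcript. At 12 to 206 counts the LOXL4 ratio had a wide counting interval (1.35 to 5.49 within replicate 2), and at no more than 2 counts no P4HA3 difference was detectable at this depth.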
